A study of Mus musculus with 8 samples.

Results

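The genes described here encode 10 peptide hormones and neuropeptides, namely Pth, Gal, Calca, Cck, Gcg, Sst, Pyy, Nts, Ghrl and Iapp. They were chosen by name, and their Ensembl identifiers in the count table were matched to mouse GENCODE symbols. Earlier results of these data were known when these genes and the other gene lists below were chosen. Their shares beside all genes are thus descriptive only. All 10 were among the 25466 genes of the table, and all 10 passed the filter on low counts, so that none is missing from the tests. None was under 3 counts when the 8 libraries were summed. Of the 80 values, 1 for each gene and library, 8 were under 3 counts and 4 of these were 0. The low values lay in Tspan8pos MHCIIlo cells for Gal (0 and 0 counts), Cck (0 and 1), Sst (0 in replicate 2) and Pth (2 in replicate 2), and in Tspan8neg MHCIIlo cells for Nts (2 and 1 counts).

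Peptide hormones are made as longer precursors, which convertases cut inside secretory granules of endocrine cells and neurons before the active peptide is released. Medullary thymic epithelial cells (mTECs) transcribe genes of many peripheral organs, known as tissue-restricted antigens (TRAs), and developing T cells that react to them are removed or become regulatory T cells. Hormone genes are textbook examples of TRAs. The transcriptional regulator Aire, made in mature mTECs with much MHC class II on their surface, is needed for a large share of TRA transcription.

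RNA-seq was performed on mTECs of wild-type BL6N6 mice aged 4 to 6 weeks, with no treatment or transgene in any group. After depletion of CD45-bearing cells, mTECs were sorted as CD45-negative, Epcam-positive and CDR1-negative and divided by surface Tspan8, a TRA of epithelia, and by surface MHCII into 4 subsets, Tspan8neg MHCIIlo, Tspan8neg MHCIIhi, Tspan8pos MHCIIhi and Tspan8pos MHCIIlo. Each subset has 2 libraries labelled as biological replicates. The labels do not say which mice each came from, so the p-values measure the spread between these libraries only. The design asks how TRA transcription differs between mTECs with and without 1 given TRA at the protein level, at low and at high surface MHCII. MHCII does not order the subsets by age, since MHCIIlo cells can be early mTECs or mTECs at a late stage that have lost MHCII. The study places Tspan8pos MHCIIlo cells at the late stage. It describes Tspan8neg MHCIIlo cells as a mix of immature mTECs and mimetic mTECs, a group that includes thymic tuft cells.

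Library totals ranged from 1941518 to 7783841 counts. Levels are given as CPM, the counts scaled to a common library size by TMM, a normalization under which the bulk of genes stays level. Tspan8 was at 3.65 to 14.6 CPM in the 4 Tspan8neg libraries and at 347 to 404 CPM in the 4 Tspan8pos libraries. H2-Ab1, a chain of MHC class II, rose with the MHCII sort at both Tspan8 levels, with log2 fold changes of 1.42 in Tspan8neg and 2.33 in Tspan8pos cells. Its levels were 1700 and 2074 CPM in Tspan8neg MHCIIlo and 2431 and 2619 CPM in Tspan8pos MHCIIhi cells. Aire was highest in Tspan8neg MHCIIhi cells (2476 and 2658 CPM), followed by Tspan8pos MHCIIhi (402 and 541), Tspan8neg MHCIIlo (205 and 212) and Tspan8pos MHCIIlo cells (14.8 and 35.4). Epcam, which defines the sorted epithelium, lay between 367 and 1081 CPM in all libraries. The summed level of 6 thymocyte markers was 336 and 933 CPM in replicates 1 and 2 of Tspan8neg MHCIIlo and 62.8 to 196 CPM in the other 6 libraries.

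The 250 bases before the RefSeq start of 5 of the genes are printed first, Pth, Calca, Nts and Iapp for their levels and Sst for a motif match. Pth was high in Tspan8neg MHCIIlo cells, Calca and Nts in MHCIIhi cells and Iapp in Tspan8pos cells, and Sst held the single match to a cAMP response element. The sequences run 5′ to 3′ on the gene's strand in build GRCm38.p6, where capitals mark a match to any of the motifs named in the next paragraph. The windows are chr7:113388574-113388823 (minus strand) for Pth, chr7:114636358-114636607 (minus strand) for Calca, chr10:102490419-102490668 (minus strand) for Nts, chr16:23890845-23891094 (minus strand) for Sst and chr6:142298175-142298424 (plus strand) for Iapp.
Pth: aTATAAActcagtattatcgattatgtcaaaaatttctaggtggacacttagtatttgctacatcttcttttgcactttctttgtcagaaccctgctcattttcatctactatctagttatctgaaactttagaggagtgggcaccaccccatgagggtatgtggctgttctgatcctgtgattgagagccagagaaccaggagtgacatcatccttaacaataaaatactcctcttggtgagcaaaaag
Calca: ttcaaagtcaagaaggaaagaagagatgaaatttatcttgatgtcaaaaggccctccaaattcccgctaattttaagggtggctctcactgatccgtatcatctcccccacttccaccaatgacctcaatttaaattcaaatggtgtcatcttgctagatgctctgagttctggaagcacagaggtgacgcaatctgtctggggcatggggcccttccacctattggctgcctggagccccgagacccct
Nts: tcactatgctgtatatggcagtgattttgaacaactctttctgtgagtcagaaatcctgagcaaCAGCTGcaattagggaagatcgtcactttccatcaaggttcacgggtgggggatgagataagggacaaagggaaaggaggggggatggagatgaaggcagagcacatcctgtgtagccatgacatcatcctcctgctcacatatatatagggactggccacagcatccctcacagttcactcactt
Sst: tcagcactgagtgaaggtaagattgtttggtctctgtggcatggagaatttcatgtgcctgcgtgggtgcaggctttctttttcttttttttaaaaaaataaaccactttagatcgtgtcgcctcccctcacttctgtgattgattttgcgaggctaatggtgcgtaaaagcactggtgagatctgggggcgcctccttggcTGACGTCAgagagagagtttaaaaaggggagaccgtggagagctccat
Iapp: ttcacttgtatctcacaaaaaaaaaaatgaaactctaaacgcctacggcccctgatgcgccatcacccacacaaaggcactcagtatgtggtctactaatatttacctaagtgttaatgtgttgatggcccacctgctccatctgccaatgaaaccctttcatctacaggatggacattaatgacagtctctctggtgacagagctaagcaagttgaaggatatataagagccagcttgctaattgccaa

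RefSeq listed a start for all 10 genes, in 14 windows, since Pyy had 2 and Ghrl 4. Of the windows printed above, those of Nts, Sst and, by a few bases, Iapp reach into the GENCODE gene coordinates given below. RefSeq and GENCODE place these starts differently. The letters searched on both strands were TATAAA (bound by the general initiation machinery), TGACGTCA (cAMP response element), CAGCTG (an E-box), CCGGAAGT (ETS factors) and CCACACCC (Klf factors), none of which overlap in these windows. TATAAA was found for Gcg and Pth, in 2 of the 14 windows against 12.4% of 32851 windows of the same length. In Pth the match lay at bases 249 to 244 before the start, and in Gcg 1 match lay at bases 24 to 19 before the start. TGACGTCA was found for Sst alone, at bases 48 to 41 before the start, and 1.55% of all windows held it. CAGCTG was found for Nts and for 1 window of Ghrl, against 13.0% of all windows. CCGGAAGT and CCACACCC were found in none of the 14, and in 2.88% and 3.20% of all windows. The GC content of the windows ran from 39.2% for Pth to 62.4% for Gal.

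Of the 10 hormone genes, 5 were higher in MHCIIhi than in MHCIIlo cells within both Tspan8 arms, while Pth was highest in Tspan8neg MHCIIlo and Iapp in Tspan8pos cells. A gene was called when edgeR's quasi-likelihood test put it under 0.01 after adjustment and its log2 fold change was 1 or more in either direction. Within Tspan8neg cells, 5 of the 10 (Gal, Calca, Cck, Pyy and Nts) were higher in MHCIIhi, where 13.1% of the 17006 genes tested were called higher, and Pth was lower, where 9.67% were. Within Tspan8pos cells, 6 (the same 5 and Sst) were higher in MHCIIhi, where 4.59% of all genes were, and none was lower, where 2.62% were. The 6 calls became 3 without replicate 2 of Tspan8pos MHCIIhi or without either library of Tspan8pos MHCIIlo. Pth was the one member with a log2 fold change below 0 there by edgeR and by DESeq2, at -1.31 (unadjusted p = 0.292 by edgeR) and -2.27 (adjusted p = 0.412 by DESeq2). The median log2 fold change of the 10 was 1.68 in Tspan8neg and 2.70 in Tspan8pos cells, and that of all genes was -0.04 and 0.01. The summed level of 6 B cell and myeloid markers was 254 to 383 CPM in the 4 MHCIIhi libraries and 48.3 to 114 CPM in the 4 MHCIIlo libraries. Most of that sum was Lyz2, a lysozyme gene of myeloid cells, at 237 to 331 CPM in MHCIIhi and 26.1 to 71.5 CPM in MHCIIlo libraries. Of the 6 markers, 2 (Adgre1 and Lyz2) were called higher in MHCIIhi within Tspan8neg, where the median log2 fold change of the list was -0.03, and 1 (Lyz2) within Tspan8pos cells, where it was 1.32. Of 8 fibroblast and endothelial markers, 5 were lower and 2 higher in MHCIIhi within Tspan8neg, and 3 were lower in MHCIIhi within Tspan8pos cells. The part of such cells in the hormone gene differences was not tested. In bulk samples such as these, fewer cells that transcribe a gene and less RNA of it per cell cannot be told apart.

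Along Tspan8 the genes moved in both directions. In MHCIIlo cells Nts and Iapp were higher in Tspan8pos than in Tspan8neg cells, where 12.1% of all genes were called higher, and Pth, Gal and Cck were lower, where 9.34% were. In MHCIIhi cells Iapp was higher, where 11.0% of all genes were, and Calca was lower, where 7.45% were. These shares of 1 in 10 are near those of all genes. The median log2 fold changes of the 10 were -1.24 and -1.06, against -0.03 for all genes in either comparison. With Gal, which was at 0 in Tspan8pos MHCIIlo cells, put at its bound of -1.10, the first median was -1.08.

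Across both markers at once, Tspan8pos MHCIIlo cells had 6 genes lower (Gal, Calca, Cck, Sst, Pyy and Nts) and 1 higher (Iapp) than Tspan8neg MHCIIhi cells, with 29.3% of all genes called in either direction. Tspan8pos MHCIIhi cells had 4 genes higher (Gal, Calca, Nts and Iapp) and 1 lower (Pth) than Tspan8neg MHCIIlo cells, with 24.7% of all genes called. The comparisons share subsets, so that their counts are not independent of each other. The difference between the Tspan8 effects in MHCIIlo and MHCIIhi cells was called for Nts alone, and for 4.60% of all genes in either direction.

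**Figure D1:**
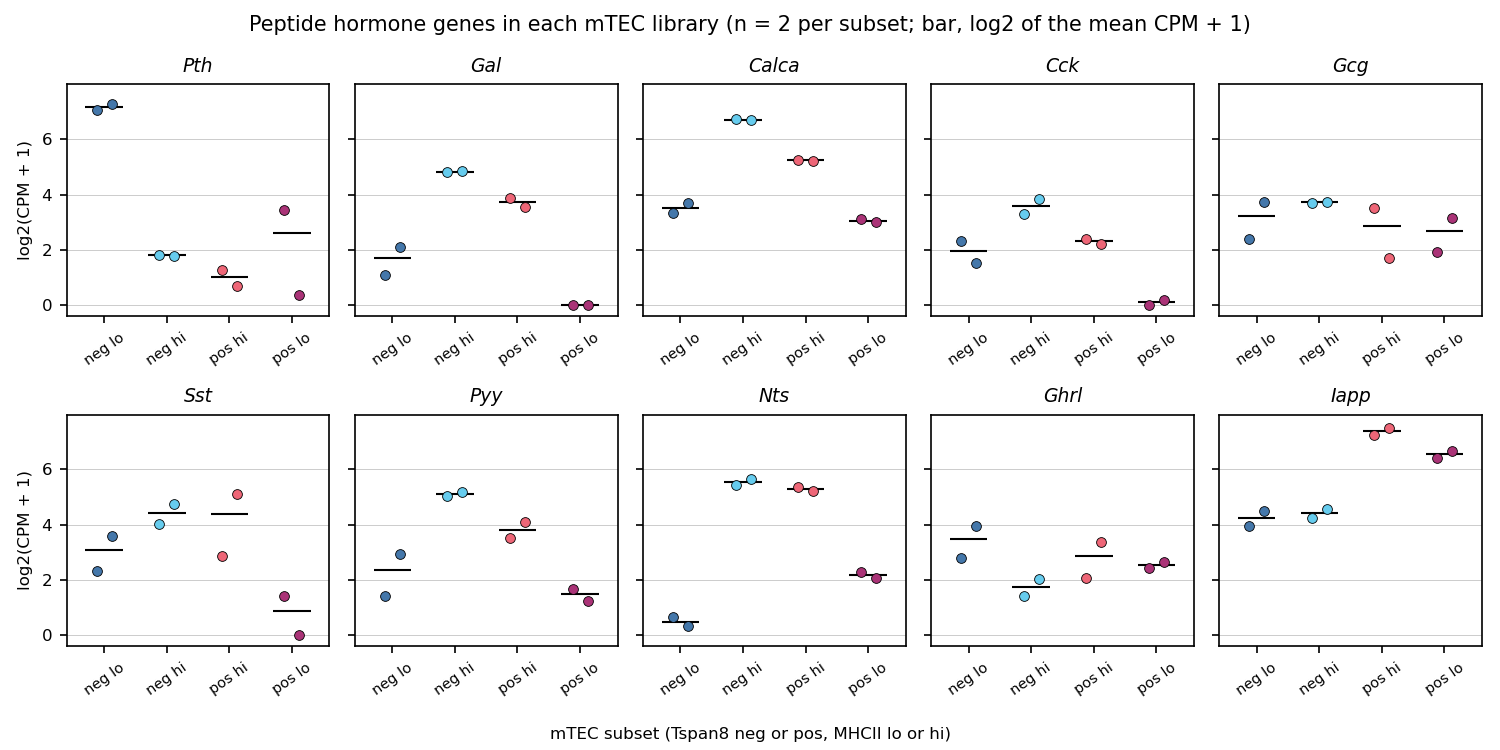
Level of each peptide hormone gene in each library, as log2(CPM + 1), by subset; points are the 2 libraries of a subset and bars the log2 of the mean CPM + 1. Pth stands out in Tspan8neg MHCIIlo cells (134 and 153 CPM), Iapp in both Tspan8pos subsets (85.2 to 179 CPM), and Gal lies at 0 in both Tspan8pos MHCIIlo libraries.

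**Figure D2:**
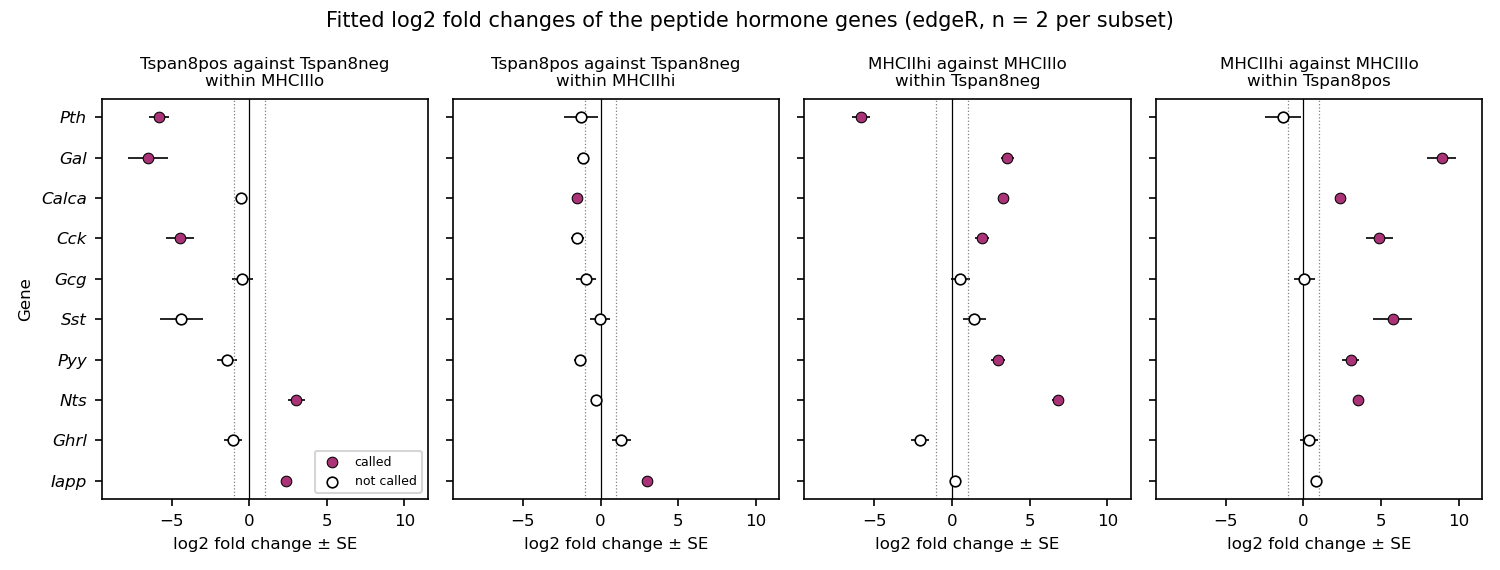
Fitted log2 fold change of each gene in the 4 comparisons along 1 marker, with its standard error as the bar; filled points passed the test and dotted lines mark a log2 fold change of 1 in either direction. Called genes along MHCII lie to the right apart from Pth (-5.85 in Tspan8neg cells), and fitted values for Gal against Tspan8pos MHCIIlo cells depend on the prior count because both libraries were at 0.

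Of the hormones of calcium balance, Pth was highest in Tspan8neg MHCIIlo and Calca in Tspan8neg MHCIIhi cells. Pth encodes parathyroid hormone, which raises blood calcium, and lies at chr7:113385580-113388570 on the minus strand in build GRCm38 (ENSMUSG00000059077.6, 3 exons). It was at 134 and 153 CPM (476 and 648 counts) in Tspan8neg MHCIIlo cells, 2.50 and 2.44 CPM in Tspan8neg MHCIIhi, 1.39 and 0.610 CPM in Tspan8pos MHCIIhi and 9.89 and 0.273 CPM in Tspan8pos MHCIIlo cells. Both Tspan8neg MHCIIlo libraries lay above the other 6, and this subset held 94.4% of the sum of the 4 subset means. Pth was 57.7-fold lower in MHCIIhi than in MHCIIlo cells within Tspan8neg (log2 fold change -5.85 ± 0.60 SE, adjusted p = 2.77e-05 by edgeR). Within MHCIIlo it was 56.1-fold lower in Tspan8pos than in Tspan8neg cells (-5.81 ± 0.66, adjusted p = 4.69e-05 by edgeR). The 2 Tspan8pos MHCIIlo libraries, with 18 and 2 counts, differed by 36.2-fold, the widest gap between replicates with counts in both. Without replicate 1 of this subset the latter log2 fold change was -8.93, and without replicate 2 it was -3.85, and both passed the test. Within Tspan8pos cells the MHCII difference of Pth was -1.31 ± 1.18 (adjusted p = 0.517 by edgeR) and its direction rested on the same 2 libraries, since it was 1.82 without replicate 1 and passed the test at -3.26 without replicate 2.

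Other genes of parathyroid cells were followed beside Pth, from a list of 8 markers that includes Pth itself. The summed level of the 8 was 741 and 899 CPM in Tspan8neg MHCIIlo and 150 to 248 CPM elsewhere. Most of the sum in Tspan8neg MHCIIlo was Pth and Chga, and without these 2 genes the list was not highest there. In MHCIIlo cells 4 of the 8 (50%) were lower in Tspan8pos cells and 2 (25%) were higher, against 9.34% and 12.1% of all genes. The 4 lower were Pth, Chga, Gcm2 and Casr, so the 2 higher were among the markers not described below. In Tspan8neg cells 2 of the 8 (25%) were lower in MHCIIhi, against 9.67% of all genes. Chga, a granule protein of endocrine cells, was at 490 and 637 CPM in Tspan8neg MHCIIlo and at 36.8 to 83.7 CPM in the other 6 libraries. It was lower with log2 fold changes of -3.63 ± 0.28 along Tspan8 in MHCIIlo (adjusted p = 2.56e-06 by edgeR) and -2.88 ± 0.26 along MHCII in Tspan8neg cells (adjusted p = 1.24e-05 by edgeR). Chga and Pth thus shared their highest subset.

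Gcm2, the transcription factor that specifies parathyroid cells, was at 4.77 and 4.48 CPM (17 and 19 counts) in Tspan8neg MHCIIlo, 1.87 and 3.46 CPM in Tspan8neg MHCIIhi and at most 2 counts in each Tspan8pos library. It was called lower in Tspan8pos MHCIIlo cells (adjusted p = 0.0014 by edgeR), but its difference along MHCII in Tspan8neg cells was -0.76 ± 0.57 (adjusted p = 0.311 by edgeR). Casr, the calcium-sensing receptor, was at 42.7 and 28.3 CPM in Tspan8neg MHCIIlo and 11.3 to 19.5 CPM elsewhere. Its log2 fold change was -1.36 ± 0.28 along Tspan8 in MHCIIlo cells (adjusted p = 0.00266 by edgeR) and -0.88 ± 0.26 along MHCII in Tspan8neg cells (adjusted p = 0.0174 by edgeR), which was not called. Of the 8 markers, Pth and Chga were thus the 2 called lower along MHCII in Tspan8neg cells. Thymocyte markers were also highest in Tspan8neg MHCIIlo cells, with a sum of 336 CPM in replicate 1 and 933 CPM in replicate 2. Pth differed by 1.14-fold between these libraries. The part of other cells in the Pth difference was not tested.

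**Figure D3:**
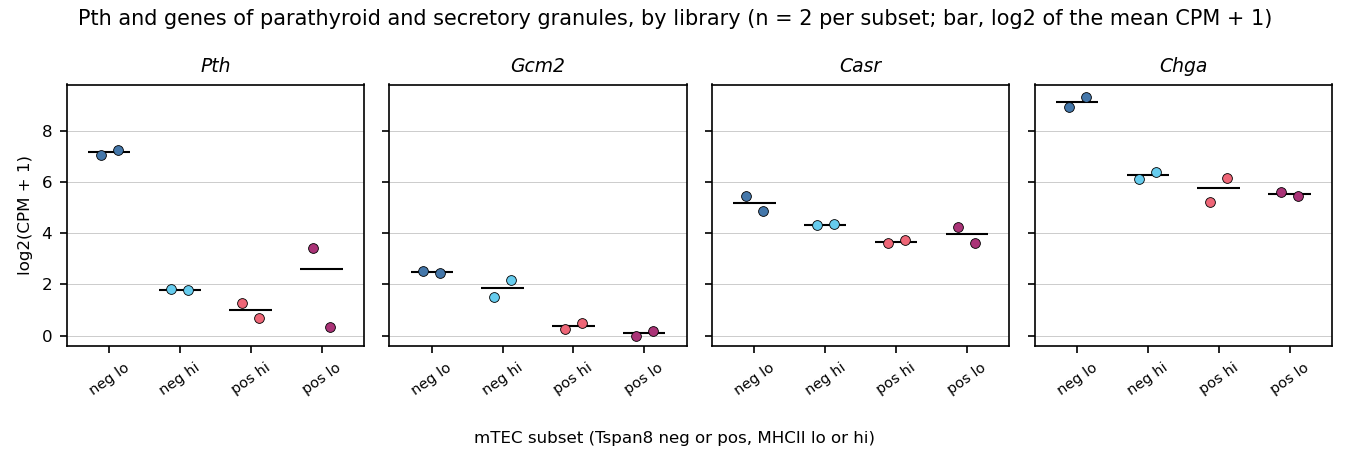
Levels of Pth, Gcm2, Casr and Chga in each library as log2(CPM + 1), with points for the 2 libraries of a subset and bars for the log2 of the mean CPM + 1. Pth and Chga lie higher in Tspan8neg MHCIIlo than in all other libraries, and Gcm2 is at 1.87 and 3.46 CPM in Tspan8neg MHCIIhi cells.

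Calca encodes calcitonin, which lowers blood calcium, and by alternative splicing the neuropeptide CGRP. It lies at chr7:114631478-114636357 on the minus strand (ENSMUSG00000030669.13, 5 exons in its longest transcript), and the table does not separate the products. It was at 106 and 102 CPM in Tspan8neg MHCIIhi, 37.4 and 36.0 CPM in Tspan8pos MHCIIhi, 8.99 and 11.8 CPM in Tspan8neg MHCIIlo and 7.70 and 6.96 CPM in Tspan8pos MHCIIlo cells. No subset overlapped another. MHCIIhi cells were 9.91-fold higher within Tspan8neg (3.31 ± 0.18, adjusted p = 6.94e-07 by edgeR) and 5.11-fold higher within Tspan8pos (2.35 ± 0.20, adjusted p = 2.50e-05 by edgeR). In MHCIIhi cells Calca was 2.83-fold lower in Tspan8pos (-1.50 ± 0.15, adjusted p = 2.30e-05 by edgeR), whereas in MHCIIlo the difference was -0.54 ± 0.23 (adjusted p = 0.0792 by edgeR). The difference between these Tspan8 effects was 0.96 ± 0.28 (adjusted p = 0.0455 by edgeR), so Calca was not called to differ between them. Markers of thyroid tissue, where calcitonin is made by C cells, summed to 51.2 and 60.5 CPM over 9 genes in Tspan8neg MHCIIhi cells, where Calca was highest, and to 179 and 193 CPM in Tspan8pos MHCIIhi cells, against 14.9 and 29.2 CPM in Tspan8neg MHCIIlo and 96.2 and 107 CPM in Tspan8pos MHCIIlo cells. Their part in the Calca differences was not tested. Calca had the closest replicates of the 10 genes, its libraries being at most 1.31-fold apart in any subset.

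Calcb encodes the second form of CGRP, and its sequence is close to that of Calca. Of the 1678 distinct runs of 31 bases in the transcripts of Calca, 33 (1.97%) also occurred in Calcb. Reads from these runs could have been assigned to either gene, and how many counts of Calca this concerns was not tested. Calcb had 306 to 4213 counts per library, against 14 to 798 for Calca, and was above Calca in every library. Like Calca, Calcb had more counts in MHCIIhi (3169 and 4213) than in MHCIIlo cells (381 and 306) within Tspan8neg. Within Tspan8pos it had 2006 and 1447 counts in MHCIIhi and 472 and 1502 in MHCIIlo, not scaled to library size. Calcb was called higher in Tspan8pos than in Tspan8neg MHCIIlo cells (1.37 ± 0.22, adjusted p = 0.000576 by edgeR), a comparison in which Calca was not called.

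The islet hormones included the gene called higher in Tspan8pos cells at either MHCII level. Iapp encodes amylin, which beta cells release with insulin, and lies at chr6:142298423-142303961 on the plus strand (ENSMUSG00000041681.2, 3 exons). It was at 152 and 179 CPM in Tspan8pos MHCIIhi, 85.2 and 101 CPM in Tspan8pos MHCIIlo, 17.7 and 22.8 CPM in Tspan8neg MHCIIhi and 14.3 and 21.7 CPM in Tspan8neg MHCIIlo cells. All 4 Tspan8pos libraries were above all 4 Tspan8neg libraries, and the 2 Tspan8neg subsets overlapped. Iapp was 8.07-fold higher in Tspan8pos cells within MHCIIhi (3.01 ± 0.21, adjusted p = 1.30e-06 by edgeR) and 5.18-fold higher within MHCIIlo (2.37 ± 0.22, adjusted p = 9.55e-06 by edgeR). Its MHCII differences were 0.17 ± 0.23 in Tspan8neg (adjusted p = 0.581 by edgeR) and 0.81 ± 0.19 in Tspan8pos cells (adjusted p = 0.0129 by edgeR), and neither was called. No other gene of the 10 was called higher along Tspan8 in both.

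Slco1a5 overlaps Iapp on the opposite strand and was also higher in Tspan8pos libraries, at 111 to 636 counts against 9 to 108 counts in Tspan8neg libraries. Use of strand in the counting is not settled by the sources, because the labels and the methods name different library kits. None of the 944 distinct 31-base runs in Iapp transcripts occurred in another gene's transcripts on either strand, so the overlap lies outside the spliced sequence of the pair.

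Sst encodes somatostatin, made by islet delta cells and by gut endocrine cells and neurons, and lies at chr16:23889573-23890958 on the minus strand (ENSMUSG00000004366.3, 2 exons). It was at 15.2 and 25.5 CPM in Tspan8neg MHCIIhi, 6.17 and 33.7 CPM in Tspan8pos MHCIIhi, 3.93 and 11.1 CPM in Tspan8neg MHCIIlo and 1.65 and 0 CPM in Tspan8pos MHCIIlo cells. The first 3 subsets overlapped in turn, and Tspan8pos MHCIIlo, with 3 and 0 counts, lay below all of them. Within Tspan8pos cells the MHCIIhi libraries had 197 counts against 3, a ratio of 60.4 with a 95% counting interval from 20.4 to 295. The call there (5.74 ± 1.24, adjusted p = 0.00891 by edgeR) was lost with DESeq2 (adjusted p = 0.0298), after thinning every library to the smallest total (adjusted p = 0.0112) and on leaving out any of 5 libraries, with values from 3.58 to 9.76. Those libraries were both of Tspan8neg MHCIIhi, both of Tspan8pos MHCIIlo and replicate 2 of Tspan8pos MHCIIhi. In MHCIIlo cells the Tspan8 difference of Sst was -4.36 ± 1.38 (adjusted p = 0.0266 by edgeR), which was not called.

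Gcg encodes glucagon and, in gut L cells, GLP-1, and lies at chr2:62474530-62483650 on the minus strand (ENSMUSG00000000394.15, 6 exons). It was at 12.1 and 12.3 CPM in Tspan8neg MHCIIhi, 4.21 and 12.3 CPM in Tspan8neg MHCIIlo, 10.4 and 2.24 CPM in Tspan8pos MHCIIhi and 2.75 and 7.92 CPM in Tspan8pos MHCIIlo cells. Each subset overlapped the next in order. Gcg was called in none of the comparisons, and its replicates differed by 2.88-fold to 4.63-fold in 3 of the 4 subsets. The log2 fold changes along MHCII were 0.54 ± 0.62 in Tspan8neg and 0.04 ± 0.68 in Tspan8pos cells, and those along Tspan8 were -0.45 ± 0.67 in MHCIIlo and -0.95 ± 0.62 in MHCIIhi cells.

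Among the gut hormones, Cck and Pyy followed the MHCII sort and Ghrl did not. Pyy encodes peptide YY, a satiety hormone of L cells, and lies at chr11:102106676-102107832 on the minus strand (ENSMUSG00000017311.15, 4 exons). It was at 31.6 and 35.2 CPM in Tspan8neg MHCIIhi, 10.4 and 15.8 CPM in Tspan8pos MHCIIhi, 1.69 and 6.60 CPM in Tspan8neg MHCIIlo and 2.20 and 1.37 CPM in Tspan8pos MHCIIlo cells. All 4 MHCIIhi libraries were above all 4 MHCIIlo libraries, and the MHCIIlo subsets overlapped. The log2 fold changes along MHCII were 2.96 ± 0.43 in Tspan8neg (7.79-fold, adjusted p = 0.000289 by edgeR) and 3.04 ± 0.54 in Tspan8pos cells (8.24-fold, adjusted p = 0.00296 by edgeR). The second call was lost on leaving out either Tspan8pos MHCIIlo library or replicate 2 of Tspan8pos MHCIIhi, with values of 2.56 to 3.26. Along Tspan8 in MHCIIhi cells Pyy had -1.35 ± 0.37 (adjusted p = 0.0142 by edgeR), which was not called, and leaving out either Tspan8neg MHCIIlo library brought the adjusted p to 0.000303 and 0.000318.

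Cck encodes cholecystokinin, released by the upper gut in response to fat and protein, and lies at chr9:121489824-121495694 on the minus strand (ENSMUSG00000032532.6, 4 exons). It was at 8.73 and 13.2 CPM in Tspan8neg MHCIIhi, 4.18 and 3.66 CPM in Tspan8pos MHCIIhi, 3.93 and 1.89 CPM in Tspan8neg MHCIIlo and 0 and 0.137 CPM in Tspan8pos MHCIIlo cells. Tspan8neg MHCIIhi was highest and Tspan8pos MHCIIlo lowest without overlap, and the subsets between them overlapped. With 1 count in Tspan8pos MHCIIlo, the ratios to it were 35.9 for Tspan8pos MHCIIhi (95% counting interval 6.07 to 1453) and 25.8 for Tspan8neg MHCIIlo cells (4.17 to 1064). Both were called, with adjusted p = 0.0027 along MHCII in Tspan8pos and 0.00263 along Tspan8 in MHCIIlo cells by edgeR. In Tspan8neg cells Cck was 3.84-fold higher in MHCIIhi (1.94 ± 0.46, adjusted p = 0.00616 by edgeR). These 3 calls of Cck did not hold in every setting. The call in Tspan8neg cells was lost with DESeq2 (adjusted p = 0.0333), with thinning (0.0321), in the fit to the Tspan8neg libraries alone (0.0132) and on leaving out replicate 2 of Tspan8neg MHCIIlo or any of the 4 MHCIIhi libraries (1.48 to 2.28). The call in Tspan8pos cells was lost with thinning and on leaving out any of the 4 Tspan8pos libraries (4.65 to 7.19). The call along Tspan8 in MHCIIlo cells was lost on leaving out replicate 1 of Tspan8neg MHCIIlo or either Tspan8pos MHCIIlo library (-6.73 to -3.85).

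Ghrl encodes ghrelin, the hunger hormone of the stomach, and lies at chr6:113716119-113719880 on the minus strand (ENSMUSG00000064177.8, 4 exons in its longest transcript). It was at 5.90 and 14.4 CPM in Tspan8neg MHCIIlo, 3.19 and 9.35 CPM in Tspan8pos MHCIIhi, 4.40 and 5.19 CPM in Tspan8pos MHCIIlo and 1.66 and 3.08 CPM in Tspan8neg MHCIIhi cells. Tspan8neg MHCIIhi, where the 5 called genes were highest, was here below the other 3 subsets. The difference along MHCII in Tspan8neg cells was -2.05 ± 0.59 (4.14-fold, adjusted p = 0.0165 by edgeR) and was not called, though it passed the test without replicate 1 of Tspan8neg MHCIIlo (-2.54, adjusted p = 0.00222). In that subset replicate 2 was 2.44-fold above replicate 1, and the thymocyte marker sum was also higher in replicate 2, at 933 against 336 CPM, whose part in the Ghrl values was not tested. Gm26982 and Gm44033 overlap Ghrl on the opposite strand, with 14 to 40 and 0 to 4 counts per library. Of the 1154 distinct 31-base runs in Ghrl transcripts, 139 occurred in Gm44033, Thada or Tmem8b on either strand, so the level of Ghrl is uncertain.

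The neuropeptides Gal and Nts were both called higher in MHCIIhi cells within each Tspan8 arm. Gal encodes galanin, a peptide of gut and brain neurons, and lies at chr19:3409915-3414544 on the minus strand (ENSMUSG00000024907.6, 6 exons). It was at 26.8 and 27.7 CPM in Tspan8neg MHCIIhi, 13.7 and 10.6 CPM in Tspan8pos MHCIIhi, 1.12 and 3.30 CPM in Tspan8neg MHCIIlo and 0 CPM in both Tspan8pos MHCIIlo libraries. No subset overlapped another. Against a floor of 3 counts in each Tspan8pos MHCIIlo library, Gal was at least 11.8-fold higher in Tspan8pos MHCIIhi (adjusted p = 0.000152 by edgeR), at least 26.5-fold higher in Tspan8neg MHCIIhi (adjusted p = 5.43e-06 by edgeR) and at least 2.15-fold higher in Tspan8neg MHCIIlo cells (adjusted p = 0.00251 by edgeR). The last call was lost with thinning (adjusted p = 0.048) and without replicate 2 of either MHCIIlo subset, and the first without replicate 2 of Tspan8pos MHCIIlo (adjusted p = 0.0114). Within Tspan8neg cells Gal was 11.8-fold higher in MHCIIhi (3.57 ± 0.41, adjusted p = 9.29e-05 by edgeR). In MHCIIhi cells its Tspan8 difference was -1.16 ± 0.32 (adjusted p = 0.0175 by edgeR) and was not called, though it passed without either Tspan8neg MHCIIlo library.

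Nts encodes neurotensin, a peptide of gut N cells and neurons, and lies at chr10:102481756-102490486 on the minus strand (ENSMUSG00000019890.3, 4 exons). It was at 42.6 and 49.1 CPM in Tspan8neg MHCIIhi, 40.4 and 36.0 CPM in Tspan8pos MHCIIhi, 3.85 and 3.14 CPM in Tspan8pos MHCIIlo and 0.562 and 0.236 CPM in Tspan8neg MHCIIlo cells. The subsets did not overlap, but the MHCIIhi subsets were close, with a Tspan8 difference of -0.27 ± 0.18 (adjusted p = 0.28 by edgeR). Within Tspan8neg cells 588 counts in MHCIIhi stood against 3 in MHCIIlo, a ratio of 121 with a 95% counting interval from 41.3 to 590 (adjusted p = 5.90e-07 by edgeR). Within Tspan8pos cells MHCIIhi was 11.4-fold higher (3.51 ± 0.26, adjusted p = 1.18e-05 by edgeR).

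In MHCIIlo cells Nts was higher in Tspan8pos, with 30 counts against 3, a ratio of 8.53 with an interval from 2.65 to 43.7 (3.03 ± 0.54, adjusted p = 0.00102 by edgeR). This call was lost in the fit to the 4 MHCIIlo libraries alone (adjusted p = 0.0176) and without replicate 2 of either MHCIIlo subset (2.50 and 3.24). Nts was the single gene of the 10 whose Tspan8 effect differed between MHCIIlo and MHCIIhi cells (3.29 ± 0.57, adjusted p = 0.00446 by edgeR). That call too was lost with thinning (3.99, adjusted p = 0.0123) and on leaving out any library other than replicate 1 of Tspan8neg MHCIIlo (2.76 to 3.49, adjusted p of 0.0111 to 0.0347). Both Nts values rest on 3 counts in Tspan8neg MHCIIlo cells.

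Levels were compared between genes per kilobase of the longest transcript (CPM per kb). In Tspan8neg MHCIIlo cells Pth led at 202 ± 19.0 (SD, n = 2), followed by Iapp at 21.5 ± 6.21, and the 7 genes from Ghrl to Gal overlapped in turn, with Nts last at 0.320 ± 0.185. In Tspan8neg MHCIIhi cells Calca led at 105 ± 2.39 and Pyy followed at 60.2 ± 4.64, both without overlap, and Nts, Gal, Sst and Iapp overlapped in turn between 36.7 and 24.1. In Tspan8pos MHCIIhi cells Iapp led at 197 ± 22.5 and Calca followed at 36.9 ± 1.05, with Pth last at 1.41 ± 0.781. In Tspan8pos MHCIIlo cells Iapp led at 111 ± 13.7, and Calca, the next, was at 7.37 ± 0.522 and overlapped Pth. Thus a different gene led in each of the 2 Tspan8neg subsets, while Iapp led in both Tspan8pos subsets.

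The CPM of all 10 genes added up to 178 and 236 in Tspan8neg MHCIIlo, 265 and 294 in Tspan8neg MHCIIhi, 279 and 327 in Tspan8pos MHCIIhi and 118 and 126 in Tspan8pos MHCIIlo cells. The sum was lowest in Tspan8pos MHCIIlo cells, and most of it there was Iapp, at 85.2 and 101 CPM.

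Other precursors of peptide hormones and neuropeptides, from a list of 62 of which 43 were tested, were also higher in MHCIIhi cells. In Tspan8neg cells 29 were higher and 1 lower in MHCIIhi (median 2.88), and in Tspan8pos cells 14 were higher and none lower (median 2.35). The higher shares were 67.4% and 32.6%, against 13.1% and 4.59% of all genes. Gip, the gut incretin, was higher in Tspan8neg MHCIIhi (adjusted p = 1.21e-05 by edgeR), and Npy, a neuropeptide related to Pyy, was higher in Tspan8pos MHCIIhi cells (4.28 ± 0.69, adjusted p = 0.00164 by edgeR). Along Tspan8, 4 were higher and 4 lower in MHCIIlo cells, each 9.3% of the list and close to the 12.1% and 9.34% of all genes. In MHCIIhi cells 2 were higher (4.65%) and 9 lower (20.9%), against 11.0% and 7.45% of all genes. Among these, Grp, the gastrin-releasing peptide, was lower in Tspan8pos MHCIIlo cells (-4.74 ± 0.47, adjusted p = 1.60e-05 by edgeR), where Edn1 was higher (3.98 ± 0.24, adjusted p = 4.99e-07 by edgeR). Pdyn, the precursor of dynorphins, was lower in Tspan8pos MHCIIhi cells (-2.69 ± 0.33, adjusted p = 8.06e-05 by edgeR).

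Of 23 genes that process prohormones or build secretory granules, 21 were tested. Along MHCII 3 were higher and 4 lower in Tspan8neg, and 5 were higher and none lower in Tspan8pos cells, with medians of -0.22 and 0.62. In Tspan8neg cells these are 14.3% and 19% of the list, against 13.1% and 9.67% of all genes, and in Tspan8pos cells the 5 higher are 23.8%, against 4.59%. The convertases Pcsk1 and Pcsk2, which cut prohormones, were called in none of the 4 comparisons along 1 marker and lay at 0.819 to 5.42 and 0.562 to 9.87 CPM. Vgf, a granule protein, rose with MHCII by 2.63 ± 0.25 in Tspan8neg (adjusted p = 1.86e-05 by edgeR) and 2.61 ± 0.32 in Tspan8pos cells (adjusted p = 0.000302 by edgeR), as Gal, Calca and Pyy did, whereas Chga fell in Tspan8neg cells. Cpe, the carboxypeptidase that trims prohormones, was higher in Tspan8pos cells, as Iapp was, with 2.41 ± 0.20 in MHCIIhi (adjusted p = 4.68e-06 by edgeR) and 1.48 ± 0.19 in MHCIIlo cells (adjusted p = 0.000111 by edgeR).

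Of 28 receptors and receptor partners for the 10 peptides, 16 were tested. Along MHCII 9 were higher and 1 lower in Tspan8neg (median 2.24), and none was higher and 1 lower in Tspan8pos cells (median 2.54). The 9 are 56.2% of the list, against 13.1% of all genes, and each single gene is 6.25%, against 9.67% and 2.62%. The summed level of the receptors went against the second median. It was 482 and 487 CPM in Tspan8pos MHCIIlo and 295 and 283 CPM in Tspan8pos MHCIIhi cells. In Tspan8neg cells the sums were 181 and 261 CPM in MHCIIlo and 210 and 232 CPM in MHCIIhi. Sort1, which binds neurotensin, was higher in Tspan8pos cells by 1.86 ± 0.19 in MHCIIlo (adjusted p = 1.97e-05 by edgeR) and was also called in MHCIIhi cells (adjusted p = 2.91e-05 by edgeR). Of 26 endocrine transcription factors, 17 were tested, with 2 higher and 2 lower along MHCII in Tspan8neg and 1 in each direction in Tspan8pos cells. These are 11.8% in each direction, close to the 13.1% and 9.67% of all genes, and 5.88%, against 4.59% and 2.62%. Along Tspan8, 3 were higher (17.6%) and 6 lower (35.3%) in MHCIIlo, against 12.1% and 9.34% of all genes, and 2 higher (11.8%) and 3 lower (17.6%) in MHCIIhi cells, against 11.0% and 7.45%. Insm1, a factor of endocrine differentiation, rose with MHCII by 2.00 ± 0.21 in Tspan8neg (adjusted p = 2.84e-05 by edgeR) and 2.39 ± 0.26 in Tspan8pos cells (adjusted p = 0.000109 by edgeR), and Mafa, a beta cell factor, was lower in Tspan8pos MHCIIlo cells (-3.43 ± 0.66, adjusted p = 0.00172 by edgeR), where Iapp was higher.

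**Figure D4:**
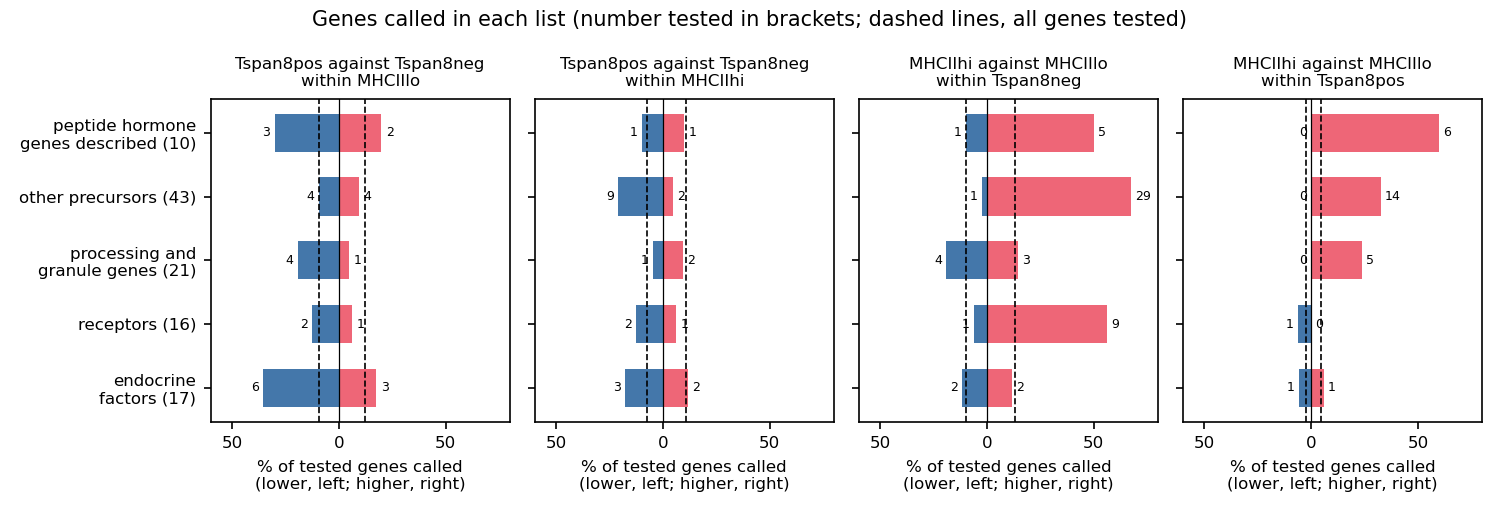
Share of the tested genes of each list called higher (right, red) or lower (left, blue) in the 4 comparisons along 1 marker, with the number of genes at each bar and dashed lines at the share of all 17006 genes. In Tspan8neg cells 29 of 43 other precursors and 5 of the 10 genes described were higher in MHCIIhi, against 13.1% of all genes.

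The pattern of each gene over the 8 libraries was set beside that of all other genes by Pearson's r of log2 CPM. The libraries fall in 4 subsets, so a high r mostly reflects a like order of subsets. Calca was most like Ctsz (0.999), Il5 and Gm42427, Iapp was most like Ugt2b34 (0.999), Clca1 and Styk1, and Nts was most like Herpud1 (0.996), Bpifb9b and Bicd1. For Pyy these genes were Gpr162 (0.993), Dct and Oas1d, for Cck Padi6 (0.990), H2-Ab1 and Rasd2, for Gal Pcp4 (0.990), Cnmd and H2-Oa, and for Pth Chrd (0.986), Sf3b4 and Tulp3. The closest genes were less close for Sst (Alg2, 0.974, then Mfge8 and Sh2d3c), Ghrl (Trmt61b, 0.969, then Fam120aos and Gm42937) and Gcg (Gm6505, 0.949, then Gm27517 and Tdrkh). By subset means, Gal, Calca, Cck, Sst and Pyy had the order of Aire, with Tspan8neg MHCIIhi first, then Tspan8pos MHCIIhi, Tspan8neg MHCIIlo and Tspan8pos MHCIIlo, though neighbours in that order overlapped for Cck, Sst and Pyy. Pth, Gcg, Nts, Ghrl and Iapp each had another order.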

How the data were processed

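RNA-seq was analysed for 8 libraries of sorted mouse mTECs, 2 per subset, grouped by the subset named in the sample labels. Estimated counts, in whole numbers and not normalized, were deposited by the authors and had been made with Salmon 1.8.0 on the Gencode mouse transcriptome (mm10) per the labels and methods. The authors' own normalization used DESeq2 1.30.0, and its values were not used here. Each of its columns was matched to a library. Library preparation is given as a stranded mRNA kit in the labels and as pre-amplified, tagmented cDNA in the methods, so use of strand is open. Symbols and coordinates came from GENCODE vM21 (GRCm38), matched for 25336 of 25466 identifiers, and upstream sequences from RefSeq (GRCm38.p6). Exon counts, transcript lengths and shared runs of bases were also taken from vM21, which need not equal the release used for counting. Identifiers are printed with the version in the count table, which for Gal, Cck, Sst and Nts is older than in vM21.

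Counts, already whole, were tested in R 4.3.3 with edgeR 4.0.16 (TMM, filterByExpr, a mean per subset over all 8 libraries, quasi-likelihood test, Benjamini-Hochberg adjustment over the 17006 genes tested). A call needed a log2 fold change of 1 or more in size, with its adjusted p below 0.01. The common dispersion was 0.024. All p-values are two-sided, and standard errors are the log2 fold change over the square root of F. An exact permutation test of 2 against 2 libraries cannot reach a p of 0.05, so none is given. In simulated data for Tspan8 in MHCIIlo cells, 83.5% of 200 changed genes of 17006 were recovered with 0 false calls. Each simulated gene had only the spread typical of its level, and the changes put in all exceeded the limit for a call. These rates need not hold for genes with wider gaps between replicates, such as Pth. Floors (3 counts) and 95% counting intervals cover counting error only, since PCR-amplified reads are not independent molecules.

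Named genes were the 10 members whatever their values, the sort genes with Aire, up to 3 called genes of each other list per comparison with the largest change among those averaging 1 CPM or more, and the 3 genes most like each member. Epcam, Pcsk1, Pcsk2, Casr, Calcb and genes overlapping a member were named outside that rule, after their values were seen. In each comparison some of the genes the rule gave are counted without being named. The members and lists were chosen with earlier results of these data known.

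Alternatives were DESeq2 1.42.0, its size factors in edgeR, no filter or at least 10 counts in 4 libraries, the libraries of the compared subsets alone, the replicate block, each library left out, no fold change limit, a threshold of 0.05 and thinning to 1941518 counts.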

Additional observations from a re-analysis of the deposited data

Results flagged for a closer look

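For Nts, the Tspan8 effect on the log2 scale was 3.29 higher in MHCIIlo than in MHCIIhi cells (SE 0.57, adjusted p = 0.00446 by edgeR), a difference between the groups tested as an interaction of Tspan8 and MHCII. In MHCIIlo cells 30 counts stood against 3, and in MHCIIhi cells the levels were 40.4 and 36.0 CPM in Tspan8pos against 42.6 and 49.1 CPM in Tspan8neg. The adjusted p ranged from 0.00108 to 0.0347 over the 16 alternatives. Thymocyte markers were highest in the Tspan8neg MHCIIlo libraries, at 336 and 933 CPM in sum, and their part in this difference was not tested.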

How the results depend on the processing

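Counts of members called depended on the settings as follows. Along Tspan8 in MHCIIlo cells the 5 calls became 2 in the fit to the compared libraries alone, where Gal, Cck and Pyy did not pass the filter, and were 2 to 6 on leaving out each library. Along Tspan8 in MHCIIhi cells the 2 calls became 4 without a filter, 5 in the compared libraries alone, 5 at an adjusted p of 0.05 and 2 to 5 on leaving out each library. Along MHCII in Tspan8pos cells the 6 calls were 3 to 6 on leaving out each library. The interaction call became 0 after thinning, 2 at an adjusted p of 0.05 and 0 to 2 on leaving out each library. Along MHCII in Tspan8neg cells the 6 calls stayed between 5 and 7 in all alternatives.

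Signs reversed after thinning for Gcg along MHCII in Tspan8pos cells (-0.54) and for the Pyy interaction (0.080, and 0.034 with DESeq2). On leaving out each library, Gcg ranged from -1.59 to 0.57 along Tspan8 in MHCIIlo, -0.016 to 1.52 along MHCII in Tspan8neg, -1.41 to 1.19 along MHCII in Tspan8pos cells and -0.66 to 1.95 in the interaction. Sst ranged from -1.72 to 0.74 along Tspan8 in MHCIIhi, Iapp from -0.088 to 0.51 along MHCII in Tspan8neg, Pth from -3.26 to 1.82 and Ghrl from -0.62 to 0.95 along MHCII in Tspan8pos cells, and the Pyy interaction from -0.75 to 1.23. None of these was called in the fit to all 8 libraries, and the cause was not tested.

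Whether same-numbered libraries are paired is open, since the labels do not say which mice each came from. Deviations of same-numbered libraries correlated at 0.00402 to 0.0924, which cannot decide it. With the replicate block, 6 members were called along Tspan8 in MHCIIlo and 3 in MHCIIhi, 7 along MHCII in Tspan8neg and 6 in Tspan8pos cells, and 1 in the interaction. Tspan8pos MHCIIlo holds both the smallest library, of 1941518 counts, with 0 Gal, 0 Cck and 3 Sst counts, and the deepest, of 7783841, with 0, 1 and 0, and counts this low leave the size of their folds imprecise.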
